A study of Mus musculus with 9 samples.

Results

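The 10 genes described here encode 6 Eph receptors (*Epha2*, *Epha4*, *Epha5*, *Epha7*, *Ephb2* and *Ephb4*) and 4 of their ligands, the ephrins (*Efna1*, *Efna5*, *Efnb1* and *Efnb2*). They were chosen by symbol from the 55416 genes counted in mouse lenses, and belong to a family of 22 genes with 14 receptors and 8 ephrins. The study sequenced RNA of E16.5 mouse lenses, 4 samples from *Atf4* null embryos and 5 from wildtype ones, and each library came from the lens pair of 1 embryo. The *Atf4* null embryos were homozygous for *Atf4* tm1Tow, an allele in which a neomycin phosphotransferase cassette takes the place of exons 3 and 4 of *Atf4*, the gene of a transcription factor of the integrated stress response. The allele is germline, so every cell of the embryo lacked ATF4. The wildtype embryos were littermates from the same heterozygous intercrosses on a mixed C57Bl/6/129 background, which was not genotyped for the *Bfsp2* deletion that 129 mice can carry. Values are counts per gene, scaled here to CPM (counts relative to the library's total, with edgeR's TMM factors), and to FPKM (CPM per kilobase of exon) where the levels of different genes are set side by side.

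Eph receptors are tyrosine kinases of the cell membrane, and the ephrins that activate them are held in the membrane of the neighboring cell, so that their signals arise only where cells touch. A-class receptors bind mainly the lipid-anchored ephrin-As and B-class receptors mainly the transmembrane ephrin-Bs, and the signal can run into the receptor-bearing cell as well as into the ephrin-bearing cell, where it moves the cytoskeleton, junctions and adhesion. In the lens, EphA2 and ephrin-A5 are known for the alignment and packing of fiber cells and for the order of the epithelium, and variants of *EPHA2* cause human cataract.

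The labelled genotype was checked against *Atf4* itself, which stood at 155, 141, 142, 129 and 119 CPM in wildtype replicates 1 to 5 and at 3.29, 8.64, 10.6 and 0.582 CPM in *Atf4* null replicates 1 to 4 (log2 fold change -4.55). Each wildtype library held 8409779 to 8906996 counts on genes, and each *Atf4* null library 7440807 to 8696699. The count tables are named for a single flow cell lane while the libraries were run over 4, so these totals may be less than the full depth. Lens markers were present, with 30941 to 58578 summed CPM of 10 fiber genes in wildtype and 23397 to 55893 in *Atf4* null libraries, although *Lim2* had no counts in any library. A library of each genotype stood apart. Wildtype replicate 5 held 9509 summed CPM of 11 skeletal muscle genes and 14305 of 10 mesenchyme genes, against 14.8 to 34.9 and 60.1 to 117 in the other wildtype libraries and 40.7 to 124 and 236 to 582 in the *Atf4* null libraries. *Atf4* null replicate 1 held 1091 summed CPM of 14 retina and neuron genes, against 366 to 713 in the other *Atf4* null libraries and 238 to 348 in wildtype. The comparison asks which lens transcripts differ where ATF4 is lacking. Where leaving out either library changed a result for a family gene, both values are given. In whole lenses, fewer cells of a type and less RNA per cell cannot be told apart.

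*Epha2* rose and *Efna1* fell in *Atf4* null lenses, and none of the other 8 chosen genes passed the test. These 2 of 10 genes had an adjusted p below 0.05 (quasi-likelihood test of edgeR, Benjamini-Hochberg adjustment over the 14903 genes tested), as did 5.9% of all genes tested. All 10 chosen genes were tested. The rise of *Epha2* stood among 2.23% of genes called higher and the fall of *Efna1* among 3.67% called lower. These 2 genes were also the chosen genes whose CPM did not overlap between the genotypes. No overlap was seen for 10.2% of all genes tested, with every *Atf4* null library higher for 4.65% and lower for 5.58%. At an unadjusted p below 0.05, *Ephb2* and *Efnb2* joined them to make 4 of 10 genes, against 19.6% of all genes tested. The median log2 fold change was -0.30 over the 10 genes, -0.06 over the 6 receptors and -0.39 over the 4 ephrins, and 0.0007 over all genes tested. Without wildtype replicate 5 these medians were -0.027, 0.28, -0.40 and 0.026, so that the first came near to 0 and that of the receptors changed sign. Both genes also passed the study's filter on size, an absolute log2 fold change above 1 with a difference and a mean of more than 2 FPKM.

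The sequence just upstream of each of these genes is shown because they were the members called. Both were read from GRCm39 for the 250 bases before the start of the canonical transcript in GENCODE vM39, 5′ to 3′ on the gene's own strand. The *Epha2* window is chr4:141028290-141028539 on the plus strand and holds no annotated exon. The *Efna1* window is chr3:89186955-89187204 on the minus strand, and it lies inside the gene's full span, between exons of a longer annotated transcript. Capitals mark the cAMP response element TGACGTCA, a palindrome that reads the same on both strands and is the core site of the CREB and ATF family of bZIP factors.
Epha2: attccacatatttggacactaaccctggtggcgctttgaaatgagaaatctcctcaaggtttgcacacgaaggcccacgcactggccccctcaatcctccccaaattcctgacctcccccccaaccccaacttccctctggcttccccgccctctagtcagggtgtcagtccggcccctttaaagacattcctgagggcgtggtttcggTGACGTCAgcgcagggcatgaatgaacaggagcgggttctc
Efna1: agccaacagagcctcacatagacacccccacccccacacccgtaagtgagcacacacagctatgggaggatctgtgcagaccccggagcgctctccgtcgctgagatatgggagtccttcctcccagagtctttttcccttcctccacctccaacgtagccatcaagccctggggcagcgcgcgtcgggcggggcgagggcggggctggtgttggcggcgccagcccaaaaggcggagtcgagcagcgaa

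The element in the *Epha2* window lies 41 to 34 bases before the start. Among the windows of 12841 tested genes, 261 (2.03%) held it, and *Epha2* was the only holder among the 10 chosen genes, also when the window was extended to 1000 bases. The element TGATGCAA, at which ATF4 pairs with C/EBP proteins, was searched on both strands and was in none of the 10 windows, against 0.475% of all windows of 250 bases and 2.25% of those of 1000 bases. With its sixth base left free (TGATGNAA, which includes the former), none of the 10 windows matched, against 2.10% and 11.2% of all windows. GC content was 56.8% in the *Epha2* window and 64.4% in the *Efna1* window, with a median of 57.2% over all windows. A match of letters is a description of the window and not a measured binding site.

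*Epha2* (ENSMUSG00000006445, GRCm39 chromosome 4 from 141028540 to 141056695, plus strand, 17 exons) encodes the A-class receptor that lens epithelial and fiber cells are known for. Its CPM was 132, 95.3, 86.5, 97.3 and 64.9 in wildtype replicates 1 to 5, and 146, 267, 241 and 319 in *Atf4* null replicates 1 to 4. Every *Atf4* null library was above every wildtype library, but the gap was narrow between *Atf4* null replicate 1 and wildtype replicate 1, and the other 3 *Atf4* null libraries stood well apart from it. From 95.3 ± 24.4 CPM in wildtype (SD, n = 5) to 243 ± 72.4 CPM in *Atf4* null lenses (SD, n = 4), the mean level was 2.56-fold higher. The log2 fold change was 1.35 (SE 0.22, 95% interval 0.88 to 1.83, adjusted p = 0.0026 by edgeR's quasi-likelihood test), and an exact two-sided permutation test of the genotype labels gave p = 0.0079, the smallest that 4 and 5 libraries allow. These values rest on 606 to 1031 counts per wildtype library and 1469 to 2229 counts per *Atf4* null library.

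**Figure D1:**
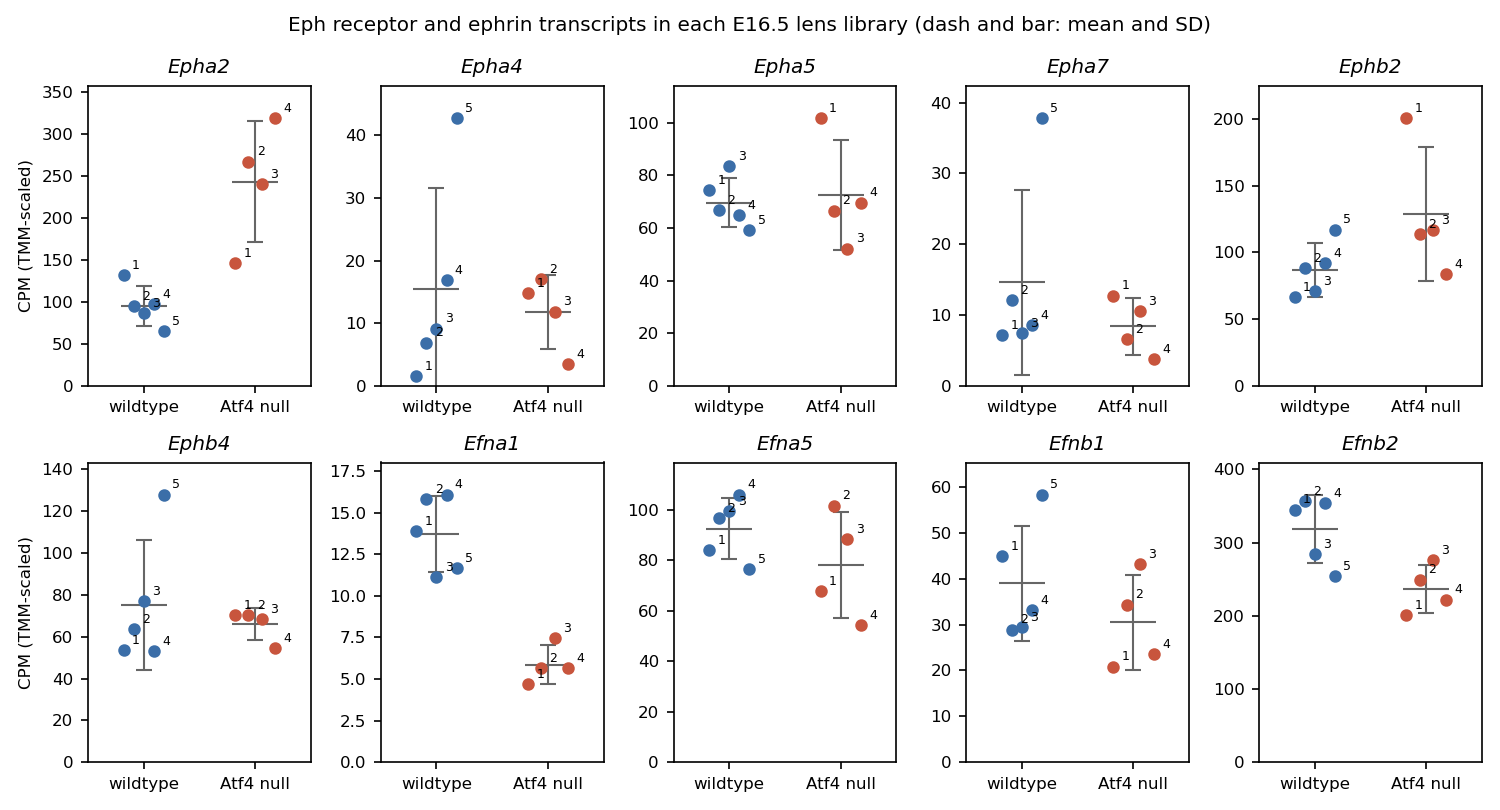
CPM (TMM-scaled, linear axes from 0) of the 10 chosen genes in each of the 5 wildtype (blue) and 4 *Atf4* null (red) libraries, numbered by replicate, with the mean (long dash) and SD (bar, which ends at the axis for *Epha4*). The genotypes separate for *Epha2* and *Efna1*, while wildtype replicate 5 is the highest library for *Epha4*, *Epha7*, *Ephb4* and *Efnb1*, and *Atf4* null replicate 1 for *Epha5* and *Ephb2*.

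Among the *Atf4* null libraries, the level of *Epha2* followed the same order as the summed lens fiber list, at 23397, 36499, 35363 and 55893 CPM in replicates 1 to 4. Wildtype replicate 5 was the lowest wildtype library for both *Epha2* and the fiber list, at 30941 CPM. The fiber sums of *Atf4* null replicates 2, 3 and 4 lay within the wildtype range. With wildtype replicate 5 left out (53082 to 58578 CPM in the others), only that of replicate 4 did. *Atf4* null replicate 4 had the highest *Epha2* level of all 9 libraries. The retina and neuron list was also higher in *Atf4* null lenses. All 14 genes had a log2 fold change above 0, with a median of 1.17. Of these, 5 were called higher, where 2.23% of all genes tested were. Their sums in the *Atf4* null libraries (366 to 1091 CPM) lay above every wildtype library (238 to 348 CPM). Sums of muscle (40.7 to 124 CPM), mesenchyme (236 to 582 CPM) and 6 pigment cell genes (43.1 to 109 CPM) in *Atf4* null libraries lay above wildtype replicates 1 to 4. There they were 14.8 to 34.9, 60.1 to 117 and 20.2 to 42.1 CPM. Wildtype replicate 5 was the highest library for these 3 lists (9509, 14305 and 141 CPM). Among the *Atf4* null libraries *Epha2* was lowest where the retina sum was highest, in replicate 1, and highest where that sum was lowest, in replicate 4. The part of RNA from these tissues in the level of *Epha2* was not tested. For *Epha2*, the log2 fold change was 1.25 without wildtype replicate 5 (edgeR's quasi-likelihood test, adjusted p = 7.76e-04) and 1.43 (adjusted p = 2.86e-06) without both that library and *Atf4* null replicate 1. Over 17 alternative settings it ran from 1.19 to 1.54 and passed the threshold in all 17, with a highest adjusted p of 0.0134.

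*Ephb2* (ENSMUSG00000028664, chromosome 4 from 136374850 to 136563351, minus strand) encodes a B-class receptor that can also bind ephrin-A5. Its CPM was 66.2, 88.5, 71.3, 92.1 and 117 in wildtype replicates 1 to 5 and 201, 114, 117 and 83.6 in *Atf4* null replicates 1 to 4. The genotypes overlapped, with *Atf4* null replicates 2, 3 and 4 inside the wildtype range and *Atf4* null replicate 1 far above every other library. The difference had a log2 fold change of 0.57 (SE 0.23, 95% interval 0.08 to 1.05) and missed the threshold, with an adjusted p of 0.181 by edgeR's quasi-likelihood test and an exact permutation p of 0.111. Its call turned on single libraries. Without wildtype replicate 5, the log2 fold change was 0.70 and passed narrowly (adjusted p = 0.0497), without *Atf4* null replicate 1 it was 0.27 (adjusted p = 0.501), and without both it was 0.41 (adjusted p = 0.115). *Atf4* null replicate 1, which held 1.91 times the mean *Ephb2* level of the other *Atf4* null libraries, was also the library with the highest sum of retina and neuron genes. The part of retinal RNA in this difference was not tested.

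*Epha5* (ENSMUSG00000029245, chromosome 5 from 84202620 to 84565348, minus strand) encodes an A-class receptor of neurons and growth cones. Its CPM was 74.2, 66.6, 83.4, 64.8 and 59.1 in wildtype replicates 1 to 5 and 102, 66.6, 52.1 and 69.6 in *Atf4* null replicates 1 to 4. Apart from *Atf4* null replicate 1, which was again the highest library, the *Atf4* null libraries lay within the wildtype range or below it. *Epha5* had a log2 fold change of 0.06 (95% interval -0.33 to 0.44, adjusted p = 0.910 by edgeR's quasi-likelihood test), and it turned to -0.15 without *Atf4* null replicate 1.

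*Ephb4* (ENSMUSG00000029710, chromosome 5 from 137348274 to 137376931, plus strand) encodes the receptor that venous endothelial cells use to read ephrin-B2. Its CPM was 53.4, 63.7, 77.0, 53.0 and 128 in wildtype replicates 1 to 5 and 70.4, 70.3, 68.2 and 54.6 in *Atf4* null replicates 1 to 4. Wildtype replicate 5 stood at 2.07 times the mean of the other wildtype libraries, and the *Atf4* null libraries lay within the range of those others. Its log2 fold change was -0.19 (95% interval -0.69 to 0.31, adjusted p = 0.738 by edgeR's quasi-likelihood test) with all libraries and 0.10 without wildtype replicate 5. Some exon bases of *Ephb4* are shared with *Zan* on the other strand, which had 0 to 28 counts per library, the most in wildtype replicate 5.

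*Epha4* (ENSMUSG00000026235, chromosome 1 from 77343822 to 77492816, minus strand), whose product binds ephrins of both classes, had the widest spread of the 10 genes relative to its mean, with an SD of 105% of the mean in wildtype and 50.2% in *Atf4* null lenses. Its CPM was 1.54, 6.91, 9.14, 16.8 and 42.7 in wildtype replicates 1 to 5 and 14.8, 17.0, 11.8 and 3.49 in *Atf4* null replicates 1 to 4, so that all *Atf4* null libraries lay inside the wildtype range. *Epha7* (ENSMUSG00000028289, chromosome 4 from 28813034 to 28967507, plus strand), an A-class receptor best known from the nervous system, had 7.19, 12.1, 7.41, 8.61 and 37.8 CPM in wildtype replicates 1 to 5 and 12.8, 6.599, 10.5 and 3.79 CPM in *Atf4* null replicates 1 to 4. For both genes, wildtype replicate 5 alone set the top of the range, at 4.96 times the mean of the other wildtype libraries for *Epha4* and 4.28 times for *Epha7*. The fitted log2 fold change was -0.39 for *Epha4* (95% interval -1.85 to 1.07, adjusted p = 0.83 by edgeR's quasi-likelihood test) and -0.79 for *Epha7* (95% interval -1.91 to 0.33, adjusted p = 0.453). Without wildtype replicate 5 the values were 0.46 and -0.06, neither past the threshold. With all libraries, the intervals of both genes include falls of more than 1 on the log2 scale, and that of *Epha4* also includes rises of more than 1.

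*Efna1* (ENSMUSG00000027954, chromosome 3 from 89179037 to 89188449, minus strand, 5 exons) encodes ephrin-A1, a lipid-anchored ligand of EphA2 that is made by endothelial and many epithelial cells. Its CPM was 13.9, 15.8, 11.1, 16.1 and 11.7 in wildtype replicates 1 to 5 and 4.68, 5.64, 7.46 and 5.68 in *Atf4* null replicates 1 to 4. Every *Atf4* null library was below every wildtype library. From 13.7 ± 2.28 CPM in wildtype (SD, n = 5) to 5.86 ± 1.16 CPM in *Atf4* null lenses (SD, n = 4), the mean level was 2.34-fold lower. The log2 fold change was -1.22 (SE 0.27, 95% interval -1.80 to -0.64, adjusted p = 0.0168 by edgeR's quasi-likelihood test), with an exact permutation p of 0.0079. It was counted at low depth, with 90 to 128 counts per wildtype and 39 to 68 per *Atf4* null library.

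The call of *Efna1* held in 14 of 17 alternative settings, with log2 fold changes between -1.36 and -1.10. It was missed narrowly when *Atf4* null replicate 2 (adjusted p = 0.0510), wildtype replicate 2 (adjusted p = 0.0515) or wildtype replicate 4 (adjusted p = 0.0517) was left out of edgeR's quasi-likelihood fit. It held without wildtype replicate 5 (log2 fold change -1.27, adjusted p = 0.0140) and without both that library and *Atf4* null replicate 1 (-1.17, adjusted p = 0.0278). Genes of a vascular endothelium list were also lower in *Atf4* null lenses without a call, with summed CPM of 400 to 691 in wildtype and 212 to 505 in *Atf4* null libraries and log2 fold changes below 0 for all 9 genes. The endothelial sums of *Atf4* null replicates 1, 2 and 4 (395, 378 and 212 CPM) lay below every wildtype library, and that of replicate 3 (505 CPM) lay within the wildtype range. *Efna1* lies 32753 bases from *Efna3*, which lies 10422 bases from *Efna4*. These neighbors had 0 to 2.31 CPM (*Efna3*, at most 18 counts per library) and 1.31 to 7.92 CPM (*Efna4*, 9 to 79 counts), and neither was called.

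*Efna5* (ENSMUSG00000048915, chromosome 17 from 62909956 to 63188312, minus strand) encodes ephrin-A5, the other A-class ligand with a known part in the lens. Its CPM was 84.0, 96.5, 99.4, 106 and 76.4 in wildtype replicates 1 to 5 and 67.7, 102, 88.3 and 54.5 in *Atf4* null replicates 1 to 4. *Atf4* null replicates 2 and 3 lay inside the wildtype range and replicates 1 and 4 below it. The fit gave a log2 fold change of -0.24 (SE 0.17, 95% interval -0.62 to 0.13, adjusted p = 0.501 by edgeR's quasi-likelihood test). It stayed below 0 in all 17 alternative settings, between -0.40 and -0.11, and passed in none. The interval leaves room for a fall by 0.62 on the log2 scale, and does not reach the size measured for *Efna1*.

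*Efnb2* (ENSMUSG00000001300, chromosome 8 from 8667226 to 8711249, minus strand) encodes ephrin-B2, the transmembrane ligand that marks arterial endothelium. Its CPM was 345, 357, 284, 354 and 255 in wildtype replicates 1 to 5 and 201, 249, 276 and 222 in *Atf4* null replicates 1 to 4. The genotypes overlapped only through wildtype replicate 5, which was below *Atf4* null replicate 3, and the other 4 wildtype libraries were above every *Atf4* null library. The fit gave a log2 fold change of -0.43 (SE 0.14, 95% interval -0.72 to -0.13), with an adjusted p of 0.0950 by edgeR's quasi-likelihood test and an exact permutation p of 0.0317. It passed the threshold without wildtype replicate 5 (log2 fold change -0.49, adjusted p = 0.0221), without both libraries that stood apart (-0.42, adjusted p = 0.0301) and in DESeq2 with all libraries (-0.42, adjusted p = 0.0316), and missed it in the other 14 alternatives. With library sizes in place of TMM factors, its log2 fold change was -0.30. Beside the endothelial sums given for *Efna1*, those of 4 pericyte genes were 150 to 314 CPM in wildtype and 85.8 to 177 CPM in *Atf4* null libraries, with log2 fold changes below 0 for all 4 and 1, *Rgs5*, called lower. The 4 blood cell genes tested were also below 0, with 1, *Hba-a1*, called lower. Over all genes tested, 3.67% were called lower. The part of vascular or blood RNA in the levels of *Efna1* and *Efnb2* was not tested.

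*Efnb1* (ENSMUSG00000031217, chromosome X from 98179680 to 98205454, plus strand) encodes ephrin-B1, a ligand of EphB receptors. Its CPM was 44.9, 28.9, 29.4, 33.2 and 58.3 in wildtype replicates 1 to 5 and 20.8, 34.3, 43.2 and 23.6 in *Atf4* null replicates 1 to 4, and the genotypes overlapped widely. *Efnb1* had a log2 fold change of -0.35 (95% interval -0.92 to 0.22, adjusted p = 0.526 by edgeR's quasi-likelihood test). Wildtype replicate 5 was the highest library here too, at 1.71 times the mean of the other wildtype libraries. Without it the log2 fold change was -0.16, and without both libraries that stood apart it was -0.0047, neither past the threshold.

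**Figure D2:**
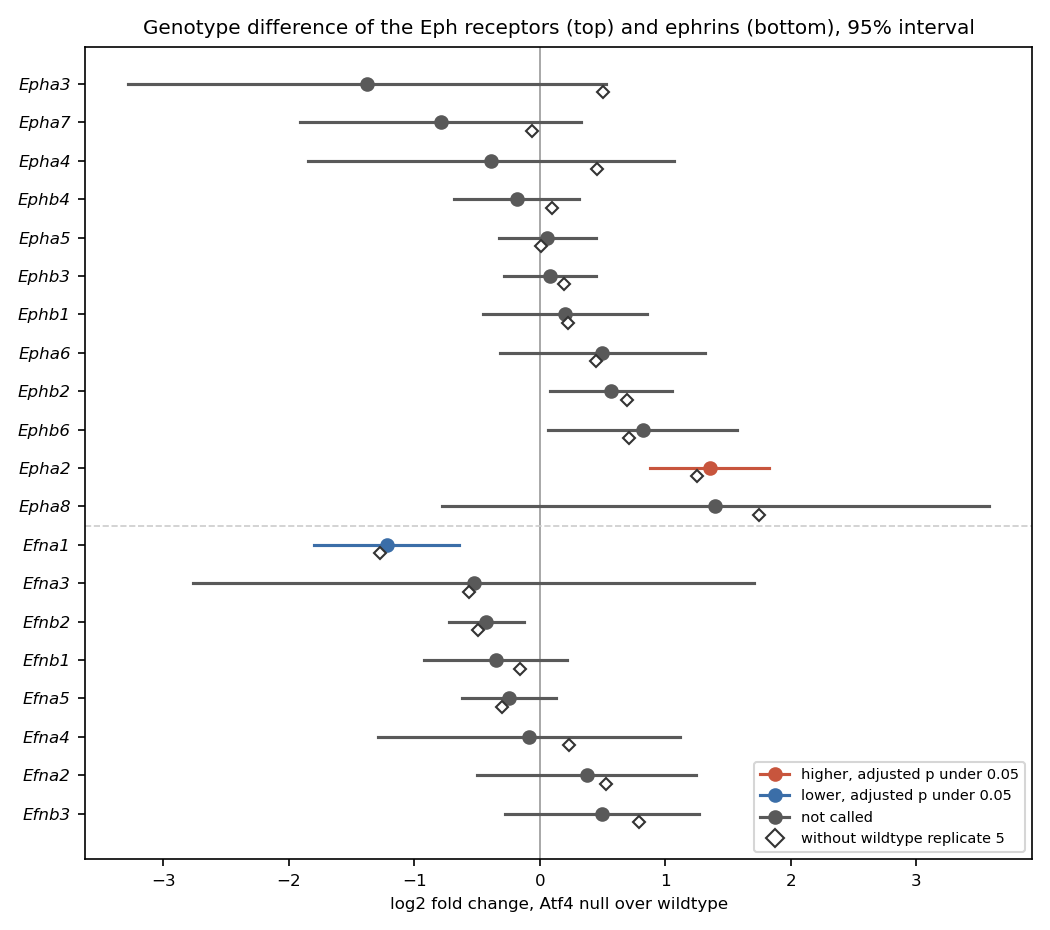
Log2 fold change (*Atf4* null over wildtype, horizontal axis) of the 20 family genes tested, with 95% intervals from edgeR's quasi-likelihood fit. Receptors are above the dashed line and ephrins below it, colored points passed an adjusted p of 0.05, and open diamonds give the value without wildtype replicate 5. Only *Epha2* (1.35) and *Efna1* (-1.22) are colored, and the diamonds of *Epha3*, *Epha4*, *Ephb4* and *Efna4* lie on the other side of 0 from their points.

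Of the other 12 genes of the family, 10 had enough counts to be tested and 0 were called by edgeR's quasi-likelihood test, while 1, *Ephb6*, had an unadjusted p below 0.05. Over all genes tested these shares were 5.9% and 19.6%. DESeq2 called none of the 9 for which it gave an adjusted p, which excludes *Epha3*. *Ephb6* encodes a receptor without kinase activity. It had 6.55, 7.77, 4.94, 15.6 and 5.35 CPM in wildtype replicates 1 to 5 and 14.7, 15.96, 16.01 and 10.05 CPM in *Atf4* null replicates 1 to 4, so that only wildtype replicate 4 reached the *Atf4* null range. Its log2 fold change was 0.82 (adjusted p = 0.210, exact permutation p = 0.0476), and it passed in the fit without wildtype replicate 4 (1.20, adjusted p = 0.0450). *Ephb3*, a receptor for ephrin-Bs that was the fourth most abundant receptor in wildtype, ran from 35.3 to 56.9 CPM in wildtype and from 40.9 to 57.6 CPM in *Atf4* null libraries (log2 fold change 0.08, and 0.19 without wildtype replicate 5). *Ephb1*, another B-class receptor, had a log2 fold change of 0.20, which was -0.08 without *Atf4* null replicate 1. *Epha6* had 0.50 and *Efna2* 0.37, which were 0.24 and 0.062 without *Atf4* null replicate 1. *Efnb3* had 0.50, which was 0.79 without wildtype replicate 5. *Efna3* had -0.53, and *Efna4* had -0.09, which was 0.23 without wildtype replicate 5 and -0.61 without *Atf4* null replicate 1. *Epha3* and *Epha8* had the largest values, -1.38 and 1.40, and each rested on a library that stood apart. *Epha3* had 68.2 CPM in wildtype replicate 5 against 3.42 to 6.30 in the other wildtype libraries, and its log2 fold change was 0.50 without it. *Epha8* had 12.8 CPM in *Atf4* null replicate 1 against 0.437 to 1.75 in the others of its genotype, and its log2 fold change was -0.35 without it. *Epha1* was at 0 in wildtype replicates 1 to 4, which allows up to 3 counts per library, and at 4.82 CPM in wildtype replicate 5. In *Atf4* null replicates 1 to 4 it had 0, 3, 16 and 0 counts, at most 1.75 CPM. *Epha10* had 0.123 to 6.28 CPM, the most in *Atf4* null replicate 1.

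Across the family, the libraries that stood apart were the highest library for 14 of the 22 genes. Wildtype replicate 5 was highest for 7 (*Epha4*, *Epha7*, *Ephb4*, *Efnb1*, *Epha1*, *Epha3* and *Efna4*) and *Atf4* null replicate 1 for another 7 (*Epha5*, *Ephb2*, *Epha6*, *Epha8*, *Epha10*, *Ephb1* and *Efna2*). *Epha2* and *Efna1* were in neither group. *Epha2* was instead lowest of the wildtype libraries in wildtype replicate 5 and lowest of the *Atf4* null libraries in *Atf4* null replicate 1. The part of muscle, mesenchyme or retina RNA in the levels of these genes was not tested.

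**Figure D3:**
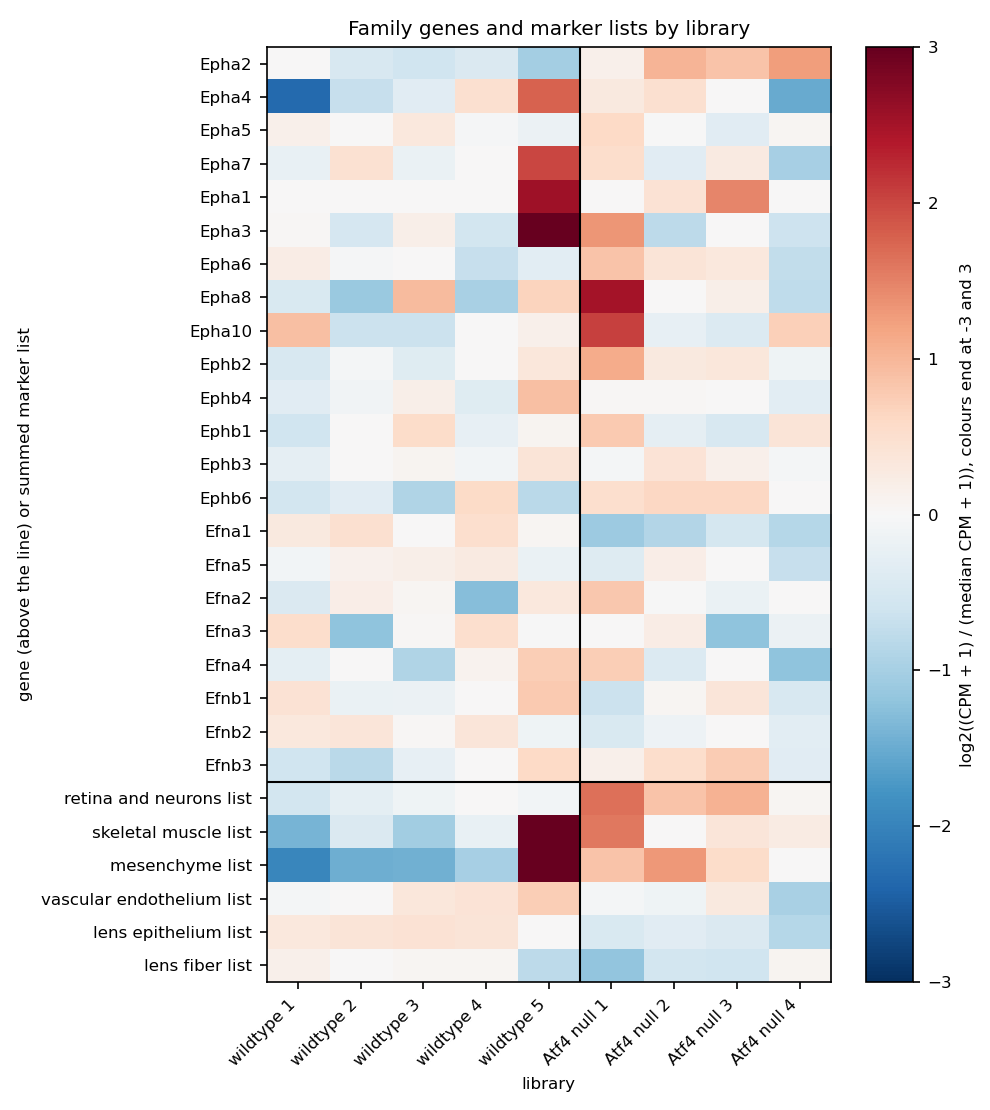
Level of each family gene (rows above the horizontal line) and of 6 summed marker lists (rows below it) in each library (columns, wildtype left and *Atf4* null right of the vertical line), as the log2 ratio of CPM + 1 to the median of CPM + 1 over the 9 libraries, with colors ending at -3 and 3. Wildtype replicate 5 is dark red for *Epha3* and the muscle and mesenchyme lists, and red for *Epha1* and *Epha7*. *Atf4* null replicate 1 is red for *Epha8*, *Epha10* and the retina list, and paler for *Ephb2*.

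Set side by side per kilobase of exon, *Efnb2* was the most abundant gene of the family in wildtype lenses, at 44.0 ± 6.43 FPKM (SD, n = 5), and did not overlap with the next. *Epha2* followed with 20.3 ± 5.21, *Efna5* with 17.6 ± 2.29, *Ephb4* with 14.9 ± 6.18, *Efnb1* with 9.78 ± 3.16 and *Ephb2* with 6.88 ± 1.58 FPKM, and each of these overlapped with its neighbor in the order. *Efna1* with 3.99 ± 0.665 and *Epha5* with 3.37 ± 0.454 FPKM also overlapped with each other, and stood below *Ephb3*, whose values (6.40 ± 1.16 FPKM) did not overlap with those of *Efna1*. *Epha4*, at 1.87 ± 1.97 FPKM, and *Epha7*, at 1.17 ± 1.05 FPKM, came last among the chosen genes, at 1.04 ± 0.770 and 0.704 ± 0.181 FPKM without wildtype replicate 5. In *Atf4* null lenses (n = 4), *Epha2* came first, at 52.0 ± 15.5 FPKM, ahead of *Efnb2* at 32.7 ± 4.54 FPKM, although *Epha2* in *Atf4* null replicate 1, at 31.3 FPKM, lay within the range of *Efnb2*. *Efna1*, at 1.71 ± 0.337 FPKM, moved from place 8 to place 15 among the 22 genes. Lengths are those of all annotated exons together, so a gene whose short transcripts prevail in the lens is understated on this scale.

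**Figure D4:**
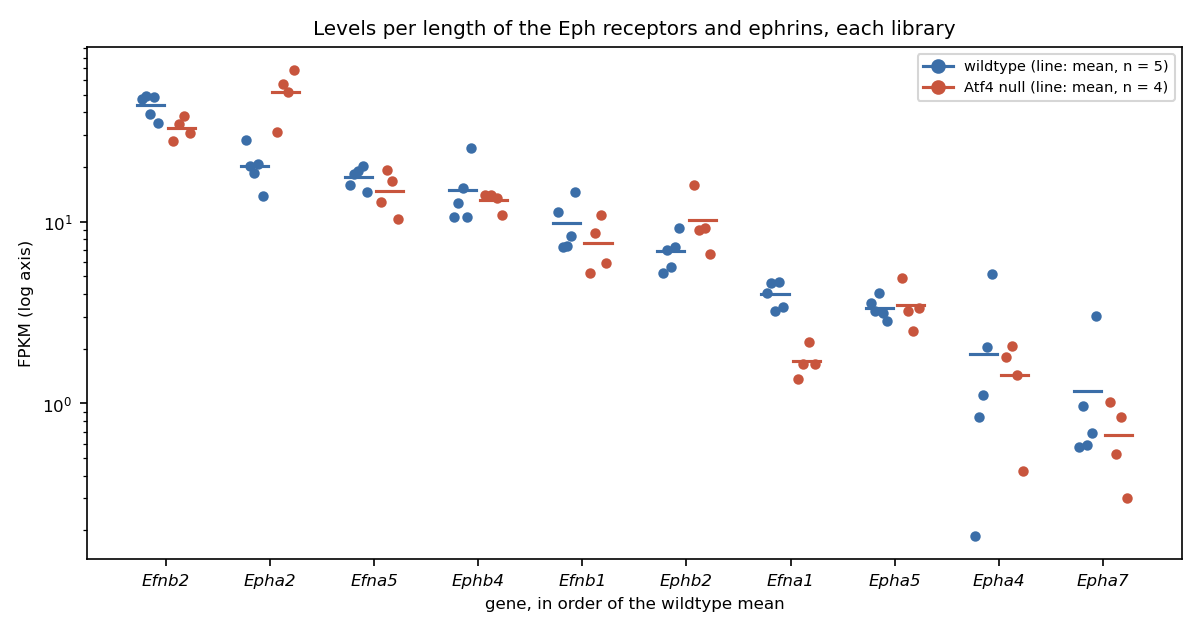
FPKM (logarithmic axis) of the 10 chosen genes in every library, in order of the wildtype mean, with a line at the mean of each genotype (5 wildtype and 4 *Atf4* null libraries). *Epha2* is at 20.3 FPKM in wildtype and 52.0 FPKM in *Atf4* null lenses, above the mean of *Efnb2*, and *Efna1* falls from 3.99 to 1.71 FPKM.

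Summed by class, EphA receptor transcripts were 35.2, 27.1, 26.99, 27.9 and 35.1 FPKM in wildtype replicates 1 to 5 and 46.6, 65.4, 59.4 and 73.6 FPKM in *Atf4* null replicates 1 to 4. Their ligands, the ephrin-As, were 25.5, 29.6, 27.5, 29.8 and 27.7 FPKM in wildtype and 26.0, 26.9, 24.6 and 16.7 FPKM in *Atf4* null libraries. The receptor sums did not overlap between the genotypes and the ligand sums did. The separation rested on *Epha2*, since the EphA receptors without it summed to 6.75 to 21.2 FPKM in wildtype and 5.48 to 15.3 FPKM in *Atf4* null libraries. With wildtype replicate 5 left out, the wildtype sums were 6.75 to 8.54 FPKM and still overlapped. The ratio of EphA to ephrin-A transcripts was 0.914 to 1.38 in wildtype and 1.79 to 4.41 in *Atf4* null libraries, the highest in *Atf4* null replicate 4. Without *Epha2* the ratio was 0.228 to 0.767 and 0.311 to 0.589. That overlap came from wildtype replicate 5. The other wildtype libraries reached 0.3109, just under the lowest *Atf4* null value of 0.3110. *Epha2* made up 33.8 ± 11.3% of all receptor FPKM in wildtype (SD, n = 5) and 53.4 ± 13.3% in *Atf4* null lenses (SD, n = 4), and the genotypes overlapped, with 48.0% in wildtype replicate 1 and 35.1% in *Atf4* null replicate 1. Relative to *Efna1*, *Epha2* transcripts stood at 4.07 to 6.995 in wildtype and 22.9 to 41.2 in *Atf4* null libraries, and relative to *Efna5* at 0.953 to 1.77 and 2.43 to 6.57. In the B class the genotypes overlapped for the receptors (23.6 to 46.5 FPKM in wildtype, 28.3 to 42.6 in *Atf4* null libraries), for the ephrins (48.8 to 60.6 and 36.0 to 53.8) and for their ratio (0.389 to 0.860 and 0.628 to 1.18). The sums combine the values given above and were not tested. They are transcript levels and say nothing of the protein at the membrane.

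**Figure D5:**
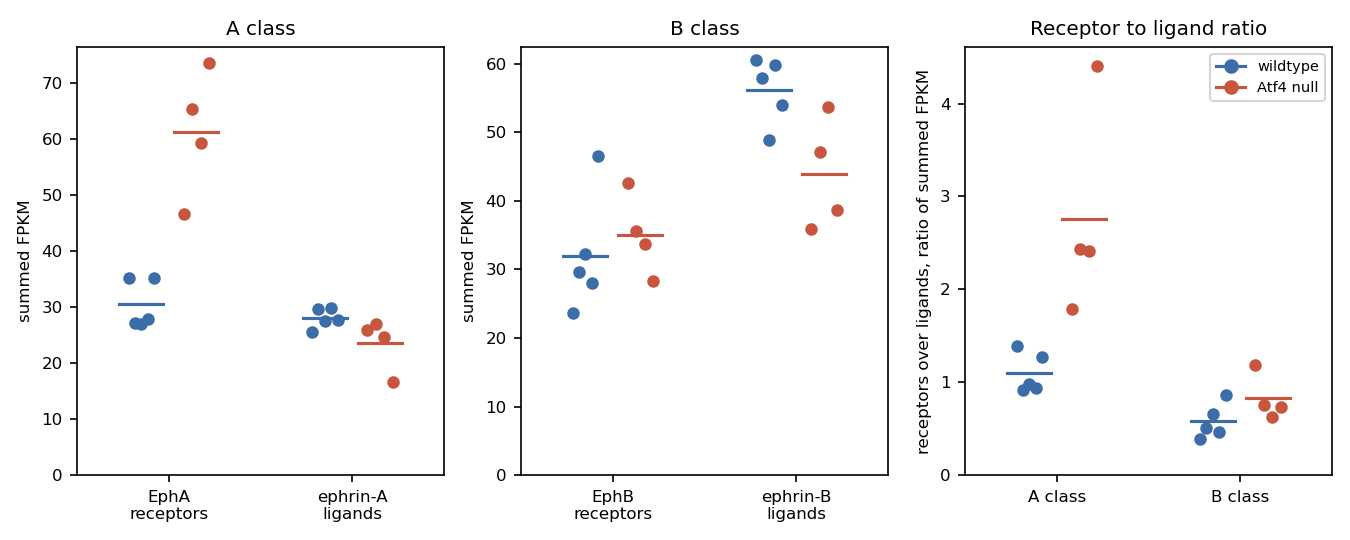
Summed FPKM of the A-class receptors and ligands (left panel) and of the B-class receptors and ligands (middle panel), and the ratio of receptor to ligand sums (right panel), with a point for each library (blue wildtype, red *Atf4* null) and a line at the mean. The A-class ratio lies between 0.914 and 1.38 in wildtype and between 1.79 and 4.41 in *Atf4* null libraries, while the B-class ratios overlap.

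Of 39 listed genes that carry the signals of Eph receptors and ephrins inside the cell (Src family kinases, adaptors, exchange factors, small GTPases and their effectors), 37 were tested, 21 had a log2 fold change above 0 and 16 below, and the median was 0.07. Only *Chn2* was called by edgeR's quasi-likelihood test, 1 of 37 genes, where 5.9% of all genes tested were called and 3.67% were called lower. It encodes a chimaerin, a protein that turns off Rac, and is a relative of the one that acts downstream of EphA4. It had 32.6, 13.2, 16.3, 21.6 and 16.7 CPM in wildtype replicates 1 to 5 and 8.77, 9.84, 11.7 and 6.26 CPM in *Atf4* null replicates 1 to 4. The genotypes did not overlap, by a narrow gap. The fit gave a log2 fold change of -1.13 (SE 0.30, adjusted p = 0.0409 by edgeR's quasi-likelihood test), and the call held in 8 of 17 alternatives.

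Of 12 genes of ephrin shedding and of the cell junctions at which Ephs act, 3 were called, all lower in *Atf4* null lenses, where 5.9% of all genes tested were called and 3.67% were called lower. *Cdh1*, which encodes the E-cadherin of the lens epithelium and is also in the list of lens epithelial markers, fell from 178 ± 29.2 CPM (SD, n = 5) to 13.9 ± 6.42 CPM (SD, n = 4), a log2 fold change of -3.68. *Cdh2*, which encodes the N-cadherin of fiber cells, had 767, 696, 702, 653 and 421 CPM in wildtype replicates 1 to 5 and 348, 425, 426 and 374 CPM in *Atf4* null replicates 1 to 4. Its genotypes overlapped only through wildtype replicate 5, and the log2 fold change was -0.72 (SE 0.16, adjusted p = 0.0179 by edgeR's quasi-likelihood test). Without that library it was -0.84 (adjusted p = 1.47e-04), and the call was missed narrowly without wildtype replicate 3 (-0.69, adjusted p = 0.0515). *Adam10*, the protease that cuts ephrin-As from the membrane, had 348, 311, 294, 320 and 244 CPM in wildtype replicates 1 to 5 and 205, 204, 212 and 257 CPM in *Atf4* null replicates 1 to 4 (log2 fold change -0.47, SE 0.13, adjusted p = 0.0459). The call of *Adam10* held in 9 of 17 alternatives, and its genotypes also overlapped only through wildtype replicate 5, without which the log2 fold change was -0.53 (adjusted p = 0.00865). Lens epithelial markers as a list were lower too, with 1131 to 1533 summed CPM in wildtype and 623 to 895 in *Atf4* null libraries, and 5 of these 6 genes were called lower, again against 3.67% of all genes tested. In every *Atf4* null library the epithelial sum was below the wildtype range, while *Epha2* was above the wildtype range in all 4. The fiber sum was below the wildtype range in *Atf4* null replicate 1, and, with wildtype replicate 5 left out (53082 to 58578 CPM in the others), also in replicates 2 and 3. All 9 fiber genes tested had a log2 fold change below 0, and 3 of them (*Bfsp1*, *Dnase2b* and *Birc7*) were called lower.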

How the data were processed

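Total RNA of lens pairs was sequenced in 9 libraries. The authors trimmed reads with Trim Galore, used HISAT2 to take out ribosomal reads, and after alignment to GRCm39 counted reads per Ensembl gene with HTSeq, and the deposited values are these raw counts. The strand setting of the counting is not given in the sources used here. HTSeq's summary entries (44.6% to 47.7% of a library) name no gene and were left out. Symbols, positions and exon lengths came from GENCODE vM39, which named 54749 of 55416 identifiers, and 0.033% of counts had no symbol.

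Genes kept by filterByExpr were compared by genotype with edgeR 4.0.16 (R 4.3.3, TMM factors, quasi-likelihood test, no covariate) over all 9 libraries, with Benjamini-Hochberg adjustment over 14903 genes and a threshold of 0.05. The procedure was tested on simulated data. The study used edgeR's exactTest, tried here as an alternative beside DESeq2 1.42.0, library size in place of TMM, TMM factors without crystallins, no filter beyond 1 count in 1 library, a minimum of 10 counts in every library, a replicate block, each library left out in turn, and a fit without wildtype replicate 5 and *Atf4* null replicate 1, which was chosen after seeing the data. Promoters were searched with Python 3.11.15. Named genes are the 10 members, the family genes tested, *Atf4*, and up to 8 called genes of each partner list, and *Epha1*, *Epha10* and called genes of the marker lists were added after their values were seen. Members and lists were chosen with earlier results of these data known. Wildtype replicate numbers follow the sample titles and are uncertain, since the library in a wildtype title is not the wildtype library that its counts name. Intervals cover 95%.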

Additional observations from a re-analysis of the deposited data

Results flagged for a closer look

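Of 40 groups of values (20 family genes in each genotype), 6 had a library farther from the others than Dixon's 95% critical value allows, where chance gives about 1 in 20. The gap of the extreme library to its nearest neighbor is given as a share of the group's range. Wildtype replicate 5 was the highest library for *Epha7* (0.840 of the range, 37.8 CPM against 7.19 to 12.1) and for *Epha3* (0.956, 68.2 against 3.42 to 6.30 CPM). *Atf4* null replicate 1 was the highest for *Epha8* (0.893, 12.8 against 0.437 to 1.75 CPM) and for *Efna2* (0.853, 14.0 against 6.47 to 7.57 CPM). *Atf4* null replicate 4 was the lowest for *Ephb4* (0.863, 54.6 against 68.2 to 70.4 CPM), and wildtype replicate 4 was the highest for *Ephb6* (0.733, 15.6 against 4.94 to 7.77 CPM). *Epha2* and *Efna1* were not among these genes.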

How the results depend on the processing

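The 880 genes called became 1397 with DESeq2, 527 to 1207 when 1 library was left out (without *Atf4* null replicate 2 and without wildtype replicate 5) and 1339 without wildtype replicate 5 and *Atf4* null replicate 1. Of the 10 chosen genes, 3 were called with DESeq2, 3 without both of these libraries and 1 to 4 when 1 library was left out (1 without *Atf4* null replicate 2, wildtype replicate 2 or wildtype replicate 4, and 4 without wildtype replicate 5), against 2 in the other settings. Scaling by library size alone moved the median log2 fold change of all genes tested to 0.12, and 790 of the 1229 genes then called were higher, against 333 of 880. The sign of the log2 fold change was not stable for 8 genes, none of them called in any setting. Over the fits that left out 1 library, or both libraries that stood apart, it ran from -0.68 to 0.46 for *Epha4*, from -0.19 to 0.19 for *Epha5*, from -0.29 to 0.10 for *Ephb4*, from -2.20 to 0.50 for *Epha3*, from -0.35 to 2.00 for *Epha8*, from -0.079 to 0.39 for *Ephb1*, from -0.038 to 0.25 for *Ephb3* and from -0.61 to 0.23 for *Efna4*. Without wildtype replicate 5 it changed sign for *Epha4* (0.46), *Ephb4* (0.10), *Epha3* (0.50) and *Efna4* (0.23), without *Atf4* null replicate 1 for *Epha5* (-0.15), *Epha8* (-0.35) and *Ephb1* (-0.079), without both for *Epha4* (0.34), *Epha5* (-0.19), *Ephb4* (0.07) and *Ephb1* (-0.05), without *Atf4* null replicate 2 for *Ephb3* (-0.038) and *Efna4* (0.02), without *Atf4* null replicate 4 for *Efna4* (0.20), and with library size for *Efna4* (0.066). The median over the 6 receptors, -0.064, was 0.37 with the replicate block, 0.28 without wildtype replicate 5 and 0.064 with library size. Library size also moved the median over all genes tested, from 0.0007 to 0.12. Wildtype replicate 5 has no *Atf4* null library of its number, so the block fit takes no genotype difference from it. The cause of the sign changes of single genes was not tested. With the replicate number as a block, 852 genes and 2 chosen genes were called, and the sign changed for *Epha4* (0.66), *Epha5* (-0.028), *Ephb4* (0.10), *Epha3* (0.22) and *Efna4* (0.083). Deviations of same-numbered libraries correlated between -0.13 and 0.008, so the numbers were not taken as pairs. Depth limits *Efna3*, *Epha8*, *Epha1* and *Epha10*, each of which had under 3 CPM in most libraries.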
